A study of Mus musculus with 12 samples.

Results

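The granule genes examined were *Mpo*, *Elane*, *Ctsg*, *Prtn3*, *Ms4a3*, *Lyz2*, *Ltf*, *Ngp*, *Camp*, and *S100a8*, 10 of the 46078 genes in the count table, found by gene symbol through their Ensembl identifiers. The 4 genes *Mpo*, *Elane*, *Ctsg*, and *Prtn3* encode proteins of primary granules, and the 3 genes *Ltf*, *Ngp*, and *Camp* encode proteins of secondary granules. The 3 others are genes of committed myeloid cells that were assigned to neither class here. All 12 libraries in 4 groups were used. The comparisons were between *Rad21* knockdown and control cells within each experiment, and between primary and secondary granule genes within each library.

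Neutrophils store their antimicrobial proteins in granules that are filled in the order in which the proteins are made. Primary (azurophilic) granules are filled first, in promyelocytes, with myeloperoxidase and the serine proteases neutrophil elastase, cathepsin G, and proteinase 3, whereas secondary (specific) granules are filled later, in myelocytes and metamyelocytes, with lactoferrin, cathelicidin, and neutrophilic granule protein. C/EBP factors, PU.1, *Runx1* with its partner *Cbfb*, *Myb*, and *Gfi1* are known regulators of these genes, and low levels of primary granule transcripts are known to appear in progenitors before any granule is made. Cohesin, of which RAD21 is the kleisin subunit, holds sister chromatids together and forms chromatin loops.

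The cells were bone marrow hematopoietic stem and progenitor cells of C57BL/6 mice, the LSK fraction (lineage-, Sca-1+, c-Kit+). All of them had been infected with a lentivirus that carried EGFP and an shRNA in a mir30 backbone, directed against *Rad21* (shRad21) or, in control cells, against luciferase (shLuci). In the culture experiment, LSK cells were infected and kept for 3 d in serum-free medium with thrombopoietin and stem cell factor, and the GFP+CD48-Sca-1+ cells were sorted, giving 3 shLuci and 3 shRad21 libraries. In the in vivo experiment, infected LSK cells were transplanted into lethally irradiated mice, and GFP+ LSK cells were sorted, 3 mo after transplantation by the labels although the study's text gives a longer interval, giving again 3 shLuci and 3 shRad21 libraries. Culture libraries were made with TruSeq RNA v2 and in vivo libraries with SMART-Seq v4 and Nextera XT, so that the kit, the sorting gate, and the setting cannot be told apart between the experiments. The labels give neither the age of the mice nor whether the replicates came from separate mice or cultures, so that p-values measure the spread between these samples, which may be technical.

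The libraries held between 15235129 and 29846689 counted reads, and 3 counts, taken as the smallest detectable amount, were worth between 0.101 and 0.197 CPM (counts per 1000000 counts, scaled with the TMM method), a limit that covers counting error only. *Rad21* lay between 121 and 145 CPM in the shRad21 and between 360 and 394 CPM in the shLuci libraries in culture, and between 46.1 and 51.4 CPM and between 124 and 133 CPM in vivo, so that each library matched its label. Progenitor markers were abundant, with *Kit* between 252 and 1045 CPM and *Cd34* between 871 and 1565 CPM over all 12 libraries, although *Kit* was lower in shRad21 cells in culture (log2 fold change -1.42) and in vivo (-0.42). *Ly6g*, which encodes the neutrophil antigen Ly6G recognized by the Gr-1 antibody of the lineage cocktail, had 0 counts in all 6 culture libraries and at most 0.486 CPM in vivo. In such bulk samples, fewer cells of a type and less RNA per cell cannot be told apart.

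In GRCm38, the 10 genes lie on 6 chromosomes. *Prtn3* (ENSMUSG00000057729, chr10:79874476-79883174) and *Elane* (ENSMUSG00000020125, chr10:79886247-79888215) are neighbors on the plus strand, 3073 bases apart. *Mpo* (ENSMUSG00000009350) spans chr11:87793581-87804413, and *Ctsg* (ENSMUSG00000040314) spans chr14:56099881-56102574 on the minus strand. The 3 secondary granule genes share chromosome 9 but are not adjacent, with *Camp* (ENSMUSG00000038357) at chr9:109847379-109849617, *Ngp* (ENSMUSG00000032484) at chr9:110419747-110423012, and *Ltf* (ENSMUSG00000032496) at chr9:111019271-111042767. *Ms4a3* (ENSMUSG00000024681) lies at chr19:11629496-11640851, *Lyz2* (ENSMUSG00000069516) at chr10:117277331-117282321, and *S100a8* (ENSMUSG00000056054) at chr3:90668978-90670035. Of the exonic bases, 14.95% of *Mpo* are shared with the antisense gene *Gm11505* and 9.18% of *Prtn3* with *Plppr3* on the opposite strand, and the other 8 genes share none. Reads in these stretches cannot be told apart in the count table, and the strand setting of the counting is not given in the sources used here. *Lyz2* has a near-identical copy, *Lyz1*, to which at most 6 reads per library were assigned. The level of *Lyz2* is uncertain where reads fit both copies.

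The promoters of the 10 genes were searched because each tested primary granule gene had a negative log2 fold change after the knockdown. Not each of these changes passed its test. RefSeq starts on GRCm38.p6 were found for 10 of 10, and the 250 bases before each start were searched on both strands for TTNCNNAA, the core of the C/EBP site, GAGGAA, the core of the PU.1 site, TGNGGT (Runx), and AACNGNC (*Myb*). The C/EBP pattern was present in 5 of the 10 promoters (*Ltf*, *Lyz2*, *Ms4a3*, *Ngp*, *S100a8*) and in 36.8% of 32851 promoters of the same length, and the PU.1 pattern was present in 6 of 10 (*Ctsg*, *Elane*, *Ltf*, *Mpo*, *Prtn3*, *S100a8*) and in 23.3% of all. The Runx pattern was found in 3 of 10 (*Ctsg*, *Ltf*, *Lyz2*) and in 40.1% of all, and the *Myb* pattern in 4 of 10 (*Ctsg*, *Elane*, *Mpo*, *Ngp*) and in 27.7% of all. All 4 primary granule promoters held the PU.1 letters and none held the C/EBP letters, whereas *Ngp* and *Ltf* held the C/EBP letters more than 1 time. The classes were not cleanly split by these letters. *Ltf* held the PU.1 letters too, and *Camp*, the other secondary granule gene, held none of the 4 patterns and is not printed. No match overlapped another, and a match of letters is a description, not a bound site. The stretches printed here are those of the 4 primary and of 2 secondary granule genes, 5′ to 3′ on the strand of the gene. Matches to any of the 4 patterns are in capitals. Bases that GENCODE M21 counts as exonic were left out, and with them the *Myb* matches of *Mpo* and *Elane* and 1 C/EBP and 1 *Myb* match of *Ngp*. They are chr11:87793534-87793580 (*Mpo*, plus strand), chr10:79886062-79886246 (*Elane*, plus), chr14:56102575-56102824 (*Ctsg*, minus), chr10:79879417-79879613 (*Prtn3*, plus), chr9:111019042-111019270 (*Ltf*, plus), and chr9:110419558-110419746 (*Ngp*, plus). The *Prtn3* stretch lies within the gene span given above, since the RefSeq start used is downstream of the start of that span.
Mpo: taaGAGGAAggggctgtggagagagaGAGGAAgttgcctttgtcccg
Elane: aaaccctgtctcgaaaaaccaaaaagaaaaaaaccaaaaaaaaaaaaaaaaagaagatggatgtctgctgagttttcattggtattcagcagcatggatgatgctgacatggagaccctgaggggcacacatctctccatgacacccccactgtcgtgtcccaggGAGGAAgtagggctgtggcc
Ctsg: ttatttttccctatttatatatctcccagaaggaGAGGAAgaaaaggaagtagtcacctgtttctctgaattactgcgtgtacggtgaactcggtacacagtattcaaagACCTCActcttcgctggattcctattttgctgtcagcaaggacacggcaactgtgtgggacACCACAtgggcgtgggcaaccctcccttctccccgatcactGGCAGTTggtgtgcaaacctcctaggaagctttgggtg
Prtn3: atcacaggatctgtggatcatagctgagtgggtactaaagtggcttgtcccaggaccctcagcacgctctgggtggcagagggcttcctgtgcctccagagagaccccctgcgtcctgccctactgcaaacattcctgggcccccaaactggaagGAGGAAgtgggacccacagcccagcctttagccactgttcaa
Ltf: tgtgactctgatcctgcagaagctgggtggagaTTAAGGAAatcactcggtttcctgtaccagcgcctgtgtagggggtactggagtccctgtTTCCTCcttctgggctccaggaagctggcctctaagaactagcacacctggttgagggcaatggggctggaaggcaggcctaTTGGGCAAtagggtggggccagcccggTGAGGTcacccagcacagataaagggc
Ngp: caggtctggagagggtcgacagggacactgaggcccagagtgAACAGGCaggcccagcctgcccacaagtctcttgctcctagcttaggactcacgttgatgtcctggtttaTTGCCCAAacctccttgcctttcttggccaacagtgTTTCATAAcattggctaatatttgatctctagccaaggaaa

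In control cells in vivo, transcripts of both granule classes were present, and the primary granule genes stood above the secondary ones. Levels were compared between genes per length, as RPKM (CPM per kilobase of exons, scaled over all 12 libraries). *Mpo*, which encodes myeloperoxidase, was highest with 369 ± 70.0 RPKM (SD, n = 3), followed by *Lyz2*, the lysozyme of macrophages and granulocytes, with 343 ± 25.6 RPKM and by *Elane* with 208 ± 36.4 RPKM. *Ctsg* (126 ± 44.6 RPKM) and *Prtn3* (120 ± 12.5 RPKM) came next. *Ngp* reached 61.0 ± 19.5 RPKM, the alarmin subunit *S100a8* 55.3 ± 14.8 RPKM, the cathelicidin gene *Camp* 25.3 ± 8.39 RPKM, *Ms4a3*, a membrane protein gene of granulocyte and monocyte progenitors, 19.6 ± 4.76 RPKM, and the lactoferrin gene *Ltf* 9.55 ± 2.21 RPKM. Neighbors in this order differed by less than the larger of their SDs for *Mpo* and *Lyz2*, for *Ctsg* and *Prtn3*, for *Ngp* and *S100a8*, and for *Camp* and *Ms4a3*. Each of the 4 primary granule genes thus had a higher mean level than each of the 3 secondary granule genes.

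**Figure D1:**
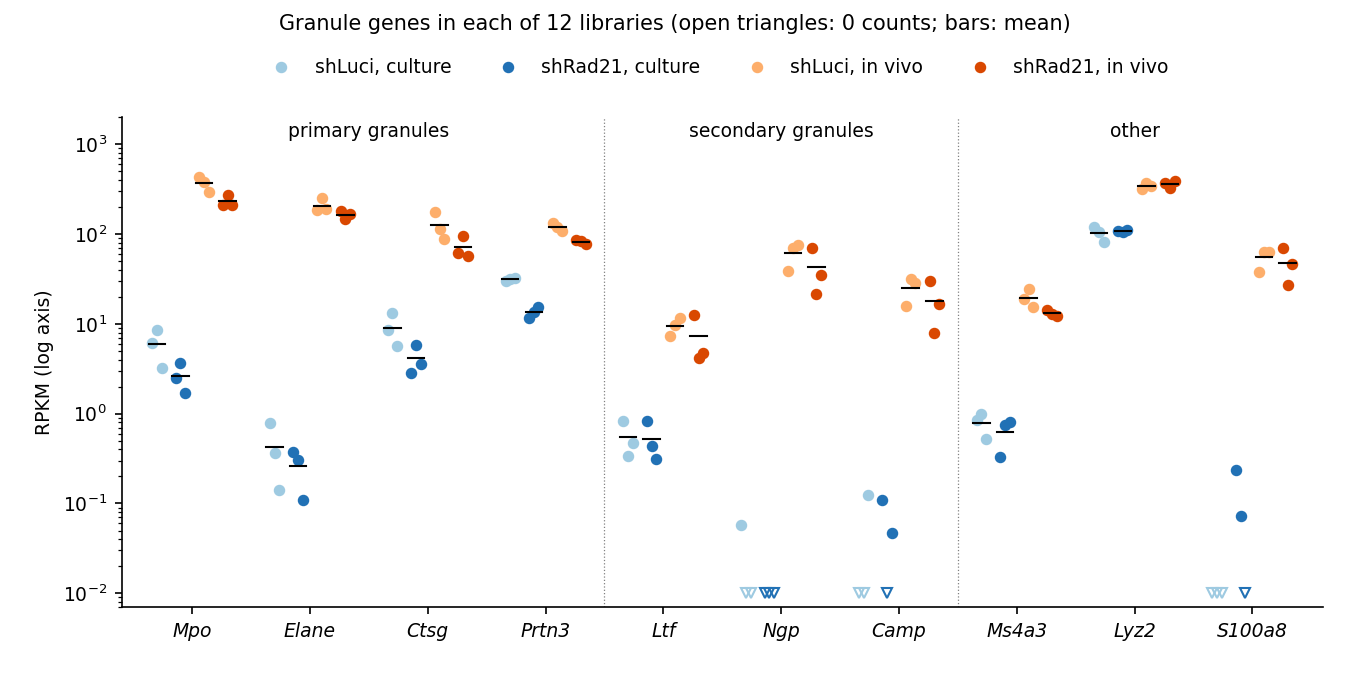
RPKM on a log axis of the 10 granule genes in each of the 12 libraries, with bars for the mean of a group in which all 3 libraries had counts. Open triangles stand for libraries with 0 counts, which occur only in culture, for *Ngp*, *Camp*, and *S100a8*.

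In control cells in culture, the order was different. *Lyz2* (102 ± 20.03 RPKM, SD, n = 3) and *Prtn3* (31.5 ± 1.27 RPKM) led, *Ctsg* (9.11 ± 3.80 RPKM) and *Mpo* (5.98 ± 2.69 RPKM) followed at a distance, and their difference was smaller than the larger SD. *Ms4a3* (0.786 ± 0.238 RPKM), *Ltf* (0.550 ± 0.255 RPKM), and *Elane* (0.431 ± 0.326 RPKM) were below 1 RPKM, and neighbors among them differed by less than the larger of their SDs. *Camp* (2 counts over the 3 libraries), *Ngp* (1 count), and *S100a8* (0 counts) were at or near the limit of detection. *Prtn3* and *Elane*, although neighbors, were thus far apart in culture, where *Elane* had between 3 and 11 counts and *Prtn3* between 743 and 1209.

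The comparison of control cells asked how far the setting, with its kit and gate, moved these genes. All 10 granule genes were lower in culture than in vivo, where 37.1% of the 17050 genes tested were lower at an adjusted p under 0.05 (quasi-likelihood test of edgeR, adjusted by Benjamini-Hochberg, also in what follows). *Elane*, *Ngp*, *Camp*, and *S100a8* passed the filter on low counts through the in vivo libraries, so that for these 4 genes a difference was a condition for their being tested, and the count of 10 is not read against the share over all genes. The smallest differences were those of *Lyz2*, with a log2 fold change of -1.75 (standard error 0.118, edgeR adjusted p = 4.39e-09), and *Prtn3*, with -1.93 (standard error 0.101, edgeR adjusted p = 2.60e-10). Larger ones were found for *Ctsg* (-3.79), *Ltf* (-4.16), *Ms4a3* (-4.65), and *Mpo* (-5.95), with edgeR adjusted p-values between 3.67e-10 and 1.19e-06. From summed counts, *Elane* was 533-fold higher in vivo, with a 95% counting interval of 348 to 861, and *Camp* was 522-fold higher, with an interval of 144 to 4319. *Ngp*, with 1 count in culture against 4811 in vivo, was 4087-fold higher with an interval of 733 to 161464, and *S100a8* was at least 701-fold higher when its 0 counts in culture were set to 3 counts over the group. The intervals cover counting error only. *Cd48*, whose protein was used to exclude cells in culture but not in vivo, had log2 fold change -2.88 in the same contrast (edgeR adjusted p = 4.42e-08), and the part of the gate in the granule gene differences was not tested.

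In culture, 6 of the 10 granule genes had enough counts for a test, with at least 15 counts in each library, and 3 of the 6 passed it, all of them primary granule genes that were lower in shRad21 cells. Over all 15543 genes tested, 8.06% were lower and 6.18% were higher. *Prtn3*, the proteinase 3 gene, was at 48.9, 51.7, and 53.0 CPM in the shLuci libraries 1 to 3 and at 18.9, 22.1, and 25.1 CPM in the shRad21 libraries 1 to 3. The groups did not overlap, with a log2 fold change of -1.22 (standard error 0.1105, edgeR adjusted p = 7.28e-05). *Mpo* was at 19.6, 27.7, and 10.4 CPM in shLuci and at 8.17, 11.9, and 5.46 CPM in shRad21 libraries. The groups overlapped in that shRad21 library 2 was above shLuci library 3, but in each same-numbered pair the shRad21 library was lower. The log2 fold change of *Mpo* was -1.19 (standard error 0.334, edgeR adjusted p = 0.0370). *Ctsg*, the cathepsin G gene, had 8.23, 12.8, and 5.48 CPM in shLuci and 2.80, 5.74, and 3.52 CPM in shRad21 libraries. As in *Mpo*, shRad21 library 2 was above shLuci library 3 and each same-numbered pair was lower in shRad21, with a log2 fold change of -1.15 (standard error 0.320, edgeR adjusted p = 0.0352). For *Elane*, 11, 7, and 3 counts in shLuci and 9, 6, and 3 counts in shRad21 libraries were too few for a test.

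In fits without pairing, the calls of *Mpo* and *Ctsg* depended on single libraries, whereas that of *Prtn3* was kept in each of 13 alternatives. With the replicate number as a block and all libraries kept, all 3 genes were called lower. Without shLuci library 1, the edgeR adjusted p was 0.0852 for *Mpo* and 0.0663 for *Ctsg*, and without shRad21 library 1 it was 0.0954 and 0.114. Without shLuci library 2, the log2 fold changes were -0.81 for *Mpo* (edgeR adjusted p = 0.184) and -0.77 for *Ctsg* (edgeR adjusted p = 0.175), and without shRad21 library 3 they were -0.94 (adjusted p = 0.117) and -1.06 (adjusted p = 0.109). *Mpo* also missed the threshold with DESeq2 (adjusted p = 0.107), and *Ctsg* in the 12-library model (edgeR adjusted p = 0.0560).

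The secondary granule genes could hardly be measured in culture. *Ltf* had 2.70, 1.11, and 1.54 CPM in shLuci and 2.68, 1.43, and 1.01 CPM in shRad21 libraries. The 2 groups overlapped over nearly their whole range, and the log2 fold change was -0.03 (standard error 0.401, edgeR adjusted p = 0.978). *Camp* had 0, 0, and 2 counts in shLuci and 2, 0, and 1 counts in shRad21 libraries, and *Ngp* had a single count among all 6 libraries, in shLuci library 1. *S100a8* had 0 counts in shLuci and 4, 1, and 0 counts in shRad21 libraries. These 3 genes were not tested. A change of *Ngp*, *Camp*, or *S100a8* was therefore not detectable in culture from these counts.

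*Ms4a3* and *Lyz2* gave no call in culture. *Ms4a3* had 1.51, 1.74, and 0.921 CPM in shLuci and 0.583, 1.34, and 1.44 CPM in shRad21 libraries, with overlapping groups and a log2 fold change of -0.29 (standard error 0.364, edgeR adjusted p = 0.676). *Lyz2* was at 149, 130, and 99.8 CPM in shLuci and at 133, 131, and 137 CPM in shRad21 libraries. The shRad21 libraries lay within the range of the shLuci libraries, with a log2 fold change of 0.08 (standard error 0.122, edgeR adjusted p = 0.731).

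**Figure D2:**
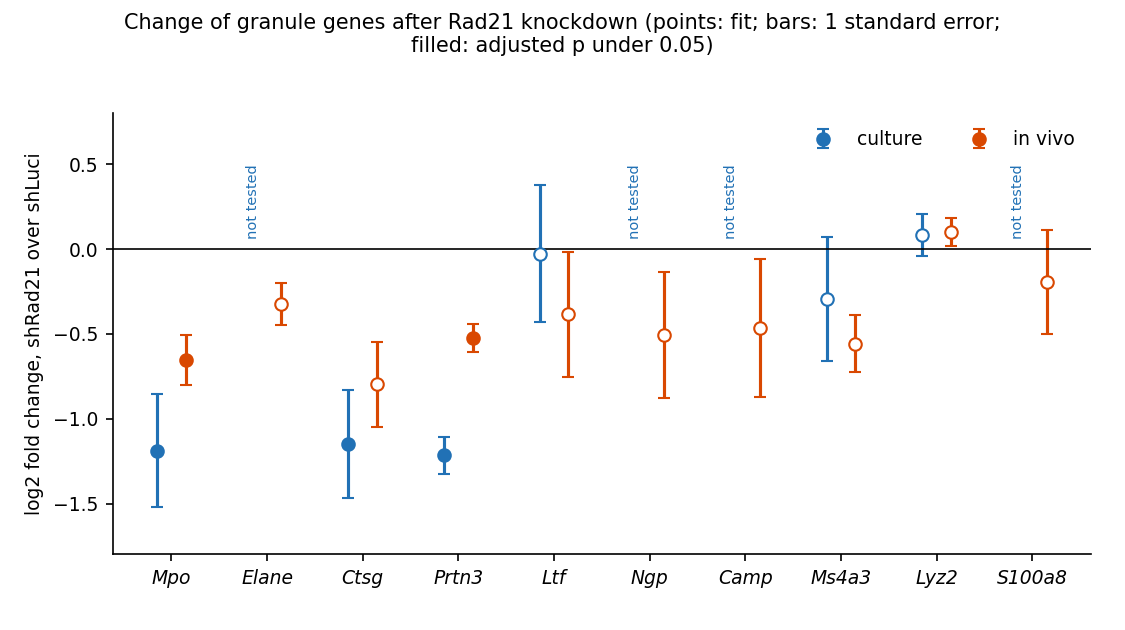
Fitted log2 fold changes of shRad21 over shLuci cells for the 10 granule genes in culture (blue) and in vivo (orange), with bars of 1 standard error and filled points at an adjusted p under 0.05. Filled points are *Mpo* and *Prtn3* in both experiments and *Ctsg* in culture, all below 0, and 4 genes had too few counts for a test in culture.

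In vivo, 2 of the 10 granule genes passed the test, *Mpo* and *Prtn3*, both lower, where 5.32% of 15938 genes were lower and 5.65% were higher. *Mpo* was at 1556, 1391, and 1055 CPM in the shLuci libraries 1 to 3 and at 761, 1014, and 767 CPM in the shRad21 libraries 1 to 3. The highest shRad21 library was just below the lowest shLuci library, and the log2 fold change was -0.65 (standard error 0.146, edgeR adjusted p = 0.0190). *Prtn3* had 241, 224, and 195 CPM in shLuci and 159, 156, and 145 CPM in shRad21 libraries. The groups did not overlap, and the log2 fold change was -0.52 (standard error 0.082, edgeR adjusted p = 0.00334). The call of *Prtn3* was kept in each of 13 alternatives, whereas that of *Mpo* was lost without shLuci library 1 (edgeR adjusted p = 0.0580), shLuci library 2 (0.0627), shRad21 library 1 (0.0745), or shRad21 library 3 (0.0912), and in the 12-library model (0.106).

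The other primary granule genes were lower in vivo on average without passing the test. *Ctsg* had 190, 125, and 96.4 CPM in shLuci and 67.8, 106, and 62.8 CPM in shRad21 libraries. The groups overlapped through shRad21 library 2, and the log2 fold change was -0.80 (standard error 0.251, edgeR adjusted p = 0.0759). *Elane*, the neutrophil elastase gene, had 192, 263, and 194 CPM in shLuci and 187, 154, and 178 CPM in shRad21 libraries. Its groups were adjacent without overlap, and the log2 fold change was -0.32 (standard error 0.124, edgeR adjusted p = 0.142). *Ctsg* passed without shLuci library 3 (log2 fold change -0.998, edgeR adjusted p = 0.0326) or without shRad21 library 2 (-1.07, edgeR adjusted p = 0.0302), and *Elane* passed with DESeq2 (adjusted p = 0.0382).

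The secondary granule genes varied in vivo more between replicates than between groups. *Ngp* had 49.7, 90.6, and 96.2 CPM in shLuci and 91.6, 28.6, and 46.2 CPM in shRad21 libraries, with a log2 fold change of -0.51 (standard error 0.370, edgeR adjusted p = 0.466). *Camp* had 12.5, 25.6, and 22.7 CPM in shLuci and 24.1, 6.44, and 13.4 CPM in shRad21 libraries, with a log2 fold change of -0.46 (standard error 0.407, edgeR adjusted p = 0.557). *Ltf* had 26.4, 35.8, and 42.3 CPM in shLuci and 46.6, 15.7, and 17.6 CPM in shRad21 libraries, with a log2 fold change of -0.38 (standard error 0.366, edgeR adjusted p = 0.595). In all 3 genes, shRad21 library 1 was close to or above shLuci libraries 2 and 3, shRad21 library 2 was the lowest of all 6, and the groups overlapped. *S100a8* likewise had its highest level in shRad21 library 1 and its lowest in shRad21 library 2, with 27.9, 47.4, and 46.5 CPM in shLuci and 51.9, 20.2, and 34.3 CPM in shRad21 libraries and a log2 fold change of -0.19 (standard error 0.305, edgeR adjusted p = 0.768). The secondary granule values rested on shRad21 library 1. Without it, the log2 fold change was -1.06 for *Ltf* (edgeR adjusted p = 0.0141), -1.07 for *Ngp* (edgeR adjusted p = 0.0640), and -1.02 for *Camp* (edgeR adjusted p = 0.143), and without shRad21 library 2 the changes were -0.11, -0.19, and -0.10.

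**Figure D3:**
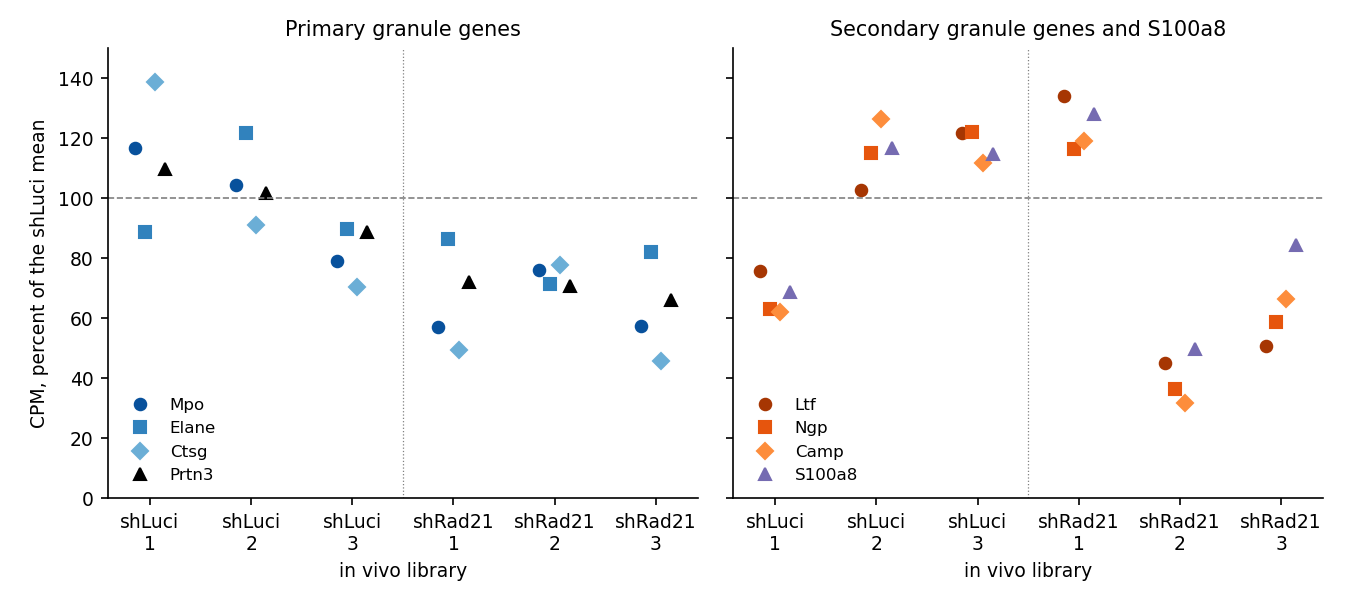
Normalized level of granule genes in the 6 in vivo libraries, in percent of the mean of the 3 shLuci libraries (dashed line at 100). Primary granule genes lay between 45.7% and 86.5% in the shRad21 libraries, whereas secondary granule genes lay between 116% and 134% in shRad21 library 1 and between 31.8% and 66.4% in shRad21 libraries 2 and 3.

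*Ms4a3* and *Lyz2* differed in direction in vivo, and neither passed the test. *Ms4a3* had 37.2, 49.7, and 30.1 CPM in shLuci and 28.6, 26.2, and 24.6 CPM in shRad21 libraries. The groups did not overlap, and the log2 fold change was -0.56 (standard error 0.168, edgeR adjusted p = 0.0652). It passed without shLuci library 3 (log2 fold change -0.71, edgeR adjusted p = 0.0188) and with DESeq2 (adjusted p = 0.00752). *Lyz2* had 437, 517, and 478 CPM in shLuci and 513, 468, and 554 CPM in shRad21 libraries, with overlapping groups and a log2 fold change of 0.10 (standard error 0.081, edgeR adjusted p = 0.510).

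Primary and secondary granule genes were set against each other by summing the CPM of each class in each library. The summed primary genes in culture reached 79.7 ± 11.9 CPM (SD, n = 3) for shLuci and 34.8 ± 4.95 CPM for shRad21, and 1908 ± 329 CPM and 1253 ± 154 CPM in vivo, without overlap between the groups in either experiment. Most of this sum in culture came from *Prtn3*, with a mean of 51.2 CPM in shLuci and 22.0 CPM in shRad21 libraries. Most of it in vivo came from *Mpo*, with 1055 to 1556 CPM in shLuci and 761 to 1014 CPM in shRad21 libraries. The primary sums thus largely restate these 2 genes. The summed secondary genes reached 1.83 ± 0.847 CPM and 1.75 ± 0.902 CPM in culture and 134 ± 39.5 CPM and 96.8 ± 58.3 CPM in vivo, with overlapping groups. The log2 ratio of primary to secondary sums, with 0.5 CPM added to each, in culture was 5.15 ± 0.646 for shLuci and 4.04 ± 0.698 for shRad21. In vivo it was 3.86 ± 0.691 and 3.85 ± 0.977. It ranged in vivo from 2.85 in shRad21 library 1 to 4.80 in shRad21 library 2, so that the range within shRad21 cells was wider than the difference between the groups. In culture the ratio rested on fewer than 3 CPM of secondary transcripts, most of them from *Ltf*.

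**Figure D4:**
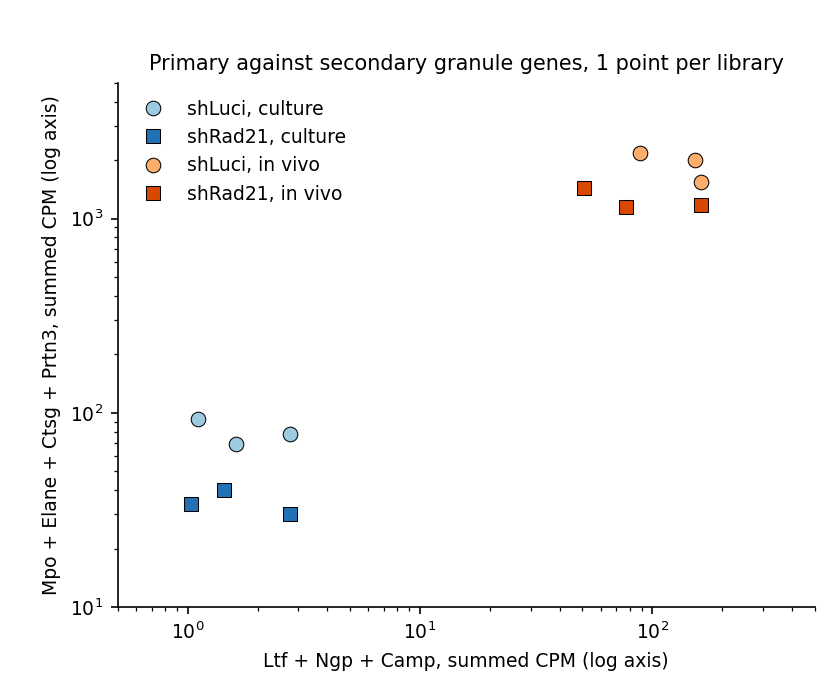
Summed CPM of the 4 primary granule genes against summed CPM of the 3 secondary granule genes, on log axes, with 1 point per library. The shRad21 libraries lie below the shLuci libraries of their experiment on the vertical axis, and the groups overlap on the horizontal axis.

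The effect of the knockdown was compared between culture and in vivo with an interaction term over all 12 libraries. *Prtn3* was the only granule gene with a call, with a difference of effects of -0.68 on the log2 scale (standard error 0.141, edgeR adjusted p = 0.0113), where 4.67% of 17050 genes were called in either direction. Its reduction was thus larger in culture, and the call was kept in each of 18 alternatives. For *Mpo* the difference was -0.53 (standard error 0.401, edgeR adjusted p = 0.561) and for *Ctsg* -0.35 (standard error 0.464, edgeR adjusted p = 0.778), and the other 7 granule genes gave no call either.

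Genes that act with the primary granules were described by a list of 10. In culture, 3 of 10 tested were lower and none was higher, where 8.06% of all genes tested were lower and 6.18% were higher. The median log2 fold change was -0.09 against -0.0039 for all genes tested. *Serpinb1a*, an inhibitor of neutrophil elastase, proteinase 3, and cathepsin G, had 141, 168, and 132 CPM in shLuci and 62.7, 66.9, and 65.2 CPM in shRad21 libraries, with a log2 fold change of -1.18 (standard error 0.0960, edgeR adjusted p = 3.61e-05). *Cst7*, an inhibitor of cysteine cathepsins, fell (-0.76, edgeR adjusted p = 0.0185), as did *Bpi* (-2.22, edgeR adjusted p = 0.00505), which encodes a protein that binds bacterial lipopolysaccharide. The call of *Cst7* was lost without shLuci library 2 or any 1 of the 3 shRad21 libraries (adjusted p between 0.0536 and 0.0921). In the paired fit, which takes the replicate number as a block, 2 more were higher, *Cd63* (0.34, edgeR adjusted p = 0.0346) and *Hexa* (0.25, edgeR adjusted p = 0.0393). In vivo, 2 of 9 tested were lower and 1 was higher, where 5.32% of all genes tested were lower and 5.65% were higher. The median was -0.06 against -0.0019. *Serpinb1a* had 466, 465, and 383 CPM in shLuci and 241, 215, and 195 CPM in shRad21 libraries, with a log2 fold change of -1.02 (standard error 0.0981, edgeR adjusted p = 0.000272). *Prss57*, a further serine protease of these granules that shares exonic bases with *Fstl3*, fell (-0.68, edgeR adjusted p = 0.0443), and *Cd63*, a granule membrane tetraspanin, rose (0.75, edgeR adjusted p = 0.000491). The call of *Prss57* was lost without shLuci library 1 or 2 or shRad21 library 1 or 3 (adjusted p between 0.117 and 0.171). *Ctsc*, which activates the serine proteases, and *Srgn*, the proteoglycan that packs them, gave log2 fold changes of -0.16 and -0.09 in culture and of 0.11 and -0.05 in vivo, without a call.

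Genes of secondary and tertiary granules and of late neutrophils were described by a list of 18. In culture, 8 had enough counts for a test, of which 7 were lower and 1 was higher. Of all genes tested, 8.06% were lower and 6.18% were higher. The median log2 fold change was -1.43 against -0.0039 for all genes. *Lcn2*, a siderophore-binding protein of secondary granules, had 10.004, 21.3, and 3.95 CPM in shLuci and 0.0778, 0.526, and 0.101 CPM in shRad21 libraries (log2 fold change -5.75, edgeR adjusted p = 0.000577). *Cybb*, a subunit of the NADPH oxidase, had 4.08, 6.71, and 3.20 CPM in shLuci and 0.350, 0.622, and 0.201 CPM in shRad21 libraries (-3.63, edgeR adjusted p = 0.000243). *Pglyrp1*, a peptidoglycan-binding granule protein, had 20.01, 15.8, and 11.9 CPM in shLuci and 7.59, 8.18, and 4.36 CPM in shRad21 libraries (-1.25, edgeR adjusted p = 0.00576). Groups did not overlap in any of these genes. *Hp*, a hemoglobin-binding protein (-2.85), *Adam8* (-1.60), *Cyba* (-0.53), and *Padi4* (-0.51) were also lower, and *Anxa1* was higher (0.60, edgeR adjusted p = 0.00548). The call of *Hp* was lost without shLuci library 2 (adjusted p = 0.0605) and that of *Cyba* without any 1 of the 3 shRad21 libraries (adjusted p between 0.0522 and 0.0817). *Lcn2*, *Cybb*, *Hp*, and *Bpi* passed the filter on low counts through the shLuci libraries, so that a fall was a condition for their being tested. *Chil3*, *Fcnb*, *Cd177*, and *Retnlg*, which mark later neutrophils, had at most 1 count per library in culture.

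In vivo, 16 genes of this list had enough counts, of which 1 was lower, a share near the 5.32% of all genes tested. The median was -0.15 against -0.0019. *Pglyrp1* had 20.7, 23.5, and 21.8 CPM in shLuci and 12.6, 12.1, and 15.8 CPM in shRad21 libraries (-0.70, standard error 0.135, edgeR adjusted p = 0.00932). *S100a9*, the partner of *S100a8*, had 30.5, 58.0, and 61.1 CPM in shLuci and 64.7, 20.8, and 38.0 CPM in shRad21 libraries, and *Lcn2* had 10.1, 18.8, and 19.8 CPM and 21.0, 4.99, and 8.58 CPM. In *Chil3* (27.2 CPM against 13.4 CPM) and *Cd177* (8.51 CPM against 2.32 CPM), shRad21 library 1 was likewise above shRad21 library 2. In *S100a9* and *Lcn2*, as in *Ngp*, *Camp*, and *Ltf*, shRad21 library 1 was above shRad21 libraries 2 and 3. *Pglyrp1* did not have this order, with its highest shRad21 level in library 3. The other genes of this list are not set out by library in vivo. The summed level of the whole list ranged from 548 to 676 CPM for shLuci and from 527 to 651 CPM for shRad21 in vivo, and the part of late neutrophils in the secondary granule values was not tested.

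Regulators of granule genes were described by a list of 15. In culture, 6 of 14 tested were lower and 3 were higher, where 8.06% of all genes tested were lower and 6.18% were higher. The median log2 fold change was -0.44 against -0.0039 for all genes. *Cebpa*, the C/EBP factor required for granulocyte commitment, had 33.1, 38.2, and 31.6 CPM in shLuci and 14.7, 20.8, and 16.8 CPM in shRad21 libraries (-0.98, standard error 0.135, edgeR adjusted p = 0.000872). *Spi1*, which encodes PU.1, had 144, 142, and 130 CPM in shLuci and 79.1, 96.6, and 94.9 CPM in shRad21 libraries (-0.62, standard error 0.0926, edgeR adjusted p = 0.00133). In both genes each shRad21 library was below each shLuci library. *Cebpb* (-1.45), *Cebpd* (-1.43), *Csf3r*, the receptor of granulocyte colony-stimulating factor (-1.13), and *Irf8*, a factor of monocytic fate (-1.07), were lower too, with edgeR adjusted p-values between 1.53e-05 and 0.00185. *Runx1* (0.71, edgeR adjusted p = 0.00315), *Cbfb* (0.28, edgeR adjusted p = 0.0424), and *Gfi1* (0.98, edgeR adjusted p = 0.000888) were higher. *Gfi1* had 35.2, 26.8, and 34.1 CPM in shLuci and 60.9, 54.1, and 74.8 CPM in shRad21 libraries, without overlap. The call of *Cbfb* was lost without shLuci library 1 or 2 or shRad21 library 1 or 2 (adjusted p between 0.0987 and 0.129). With the replicate number as a block, *Myb* (-0.26, edgeR adjusted p = 0.0444) and *Fcgr3* (-1.03, edgeR adjusted p = 0.00386) were lower in addition.

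In vivo, 5 of 15 regulators were lower and none was higher, where 5.32% of all genes tested were lower and 5.65% were higher. The median was -0.24 against -0.0019. *Cebpa* had 27.6, 22.5, and 23.1 CPM in shLuci and 11.4, 13.2, and 12.2 CPM in shRad21 libraries (-0.99, standard error 0.128, edgeR adjusted p = 0.00118). *Spi1* had 200, 187, and 180 CPM in shLuci and 116, 126, and 123 CPM in shRad21 libraries (-0.64, standard error 0.0668, edgeR adjusted p = 0.000417). *Irf8* fell from 120, 87.6, and 108 CPM to 27.4, 38.9, and 27.0 CPM (-1.76, standard error 0.157, edgeR adjusted p = 0.000172). The groups did not overlap in any of the 3 genes. *Myb* was lower as well (-0.28, edgeR adjusted p = 0.0193), a call that was lost without shLuci library 1 or shRad21 library 1 or 3 (adjusted p between 0.0631 and 0.106). *Gfi1*, a repressor needed for neutrophil maturation, went the other way than in culture, from 73.1, 71.6, and 79.6 CPM in shLuci to 35.2, 37.6, and 42.1 CPM in shRad21 libraries (-0.97, standard error 0.0874, edgeR adjusted p = 0.000189), and the difference between its effects was 1.96 on the log2 scale (edgeR adjusted p = 4.78e-05 for the interaction). *Cebpa* and *Gfi1* share exonic bases with genes on the opposite strand, Gm45091 and A430072P03Rik, whose reads may not be told apart there. *Cebpe*, the C/EBP factor of secondary granule genes, was below 1.6 CPM in all libraries and gave no call in vivo (-0.55, standard error 0.398, edgeR adjusted p = 0.463).

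**Figure D5:**
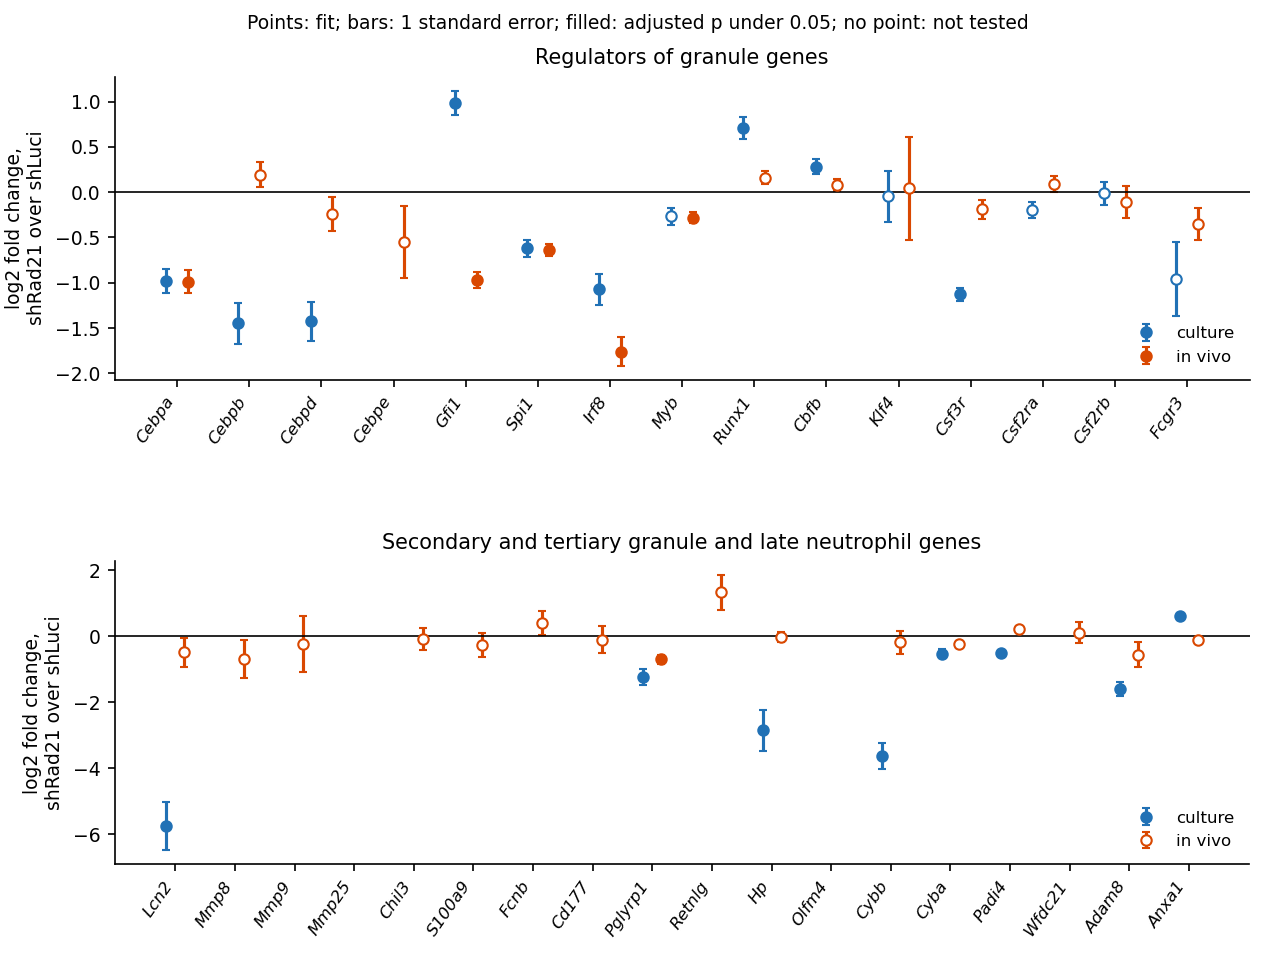
Fitted log2 fold changes of shRad21 over shLuci cells for 15 regulators of granule genes (top) and 18 genes of secondary and tertiary granules and late neutrophils (bottom), with bars of 1 standard error, filled points at an adjusted p under 0.05, and no point where counts were too few. *Cebpa*, *Spi1*, and *Irf8* lie below 0 in both experiments, *Gfi1* lies on opposite sides of 0, and the lower panel has 8 filled points in culture and 1 in vivo.

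Several markers of monocytes and macrophages, cells that share several granule genes, were lower in shRad21 cells beside the primary granule genes. Of 10 markers, 5 were lower and 1 was higher of 7 tested in culture, and 5 were lower of 9 tested in vivo, with medians of -1.46 and -1.21. Over all genes tested, 8.06% were lower and 6.18% were higher in culture, with a median of -0.0039. In vivo, 5.32% were lower and 5.65% were higher, with a median of -0.0019. *Cd14*, among those lower in culture, passed the filter on low counts through the shLuci libraries, so that a fall was a condition for its being tested. *Fcgr1*, the marker that was higher in culture, lost its call without shLuci library 1 or 2 or shRad21 library 2 or 3. The calls of *Ccr2* and *F13a1* in culture were lost without shLuci library 2 or shRad21 library 1. That of *Ccr2* was also lost without shRad21 library 3. In vivo, 2 markers were lower without shRad21 library 3 (*Cd68* and *Ms4a6c*), where the calls of *Csf1r*, *Ccr2*, and *Ly6c2* were lost. The call of *Ly6c2* in vivo was kept in 8 of 13 alternatives. The summed level of the 10 markers ranged in culture from 59.1 to 82.7 CPM for shLuci and from 28.7 to 38.7 CPM for shRad21. In vivo it ranged from 149 to 185 CPM for shLuci and from 73.7 to 93.1 CPM for shRad21. *Csf1r*, the receptor of colony-stimulating factor 1, whose exons overlap Hmgxb3 on the opposite strand, fell in culture (-1.82, edgeR adjusted p = 0.0003) and in vivo (-1.28, edgeR adjusted p = 0.0096, and 0.0520 without shRad21 library 3), and *Cd68* fell in both (-1.16, edgeR adjusted p = 0.000176, and -1.67, edgeR adjusted p = 0.000773). *Itgam*, which encodes the lineage antigen CD11b and shares exonic bases with *Gm49368*, was also lower in culture (-1.84, edgeR adjusted p = 0.00178) and in vivo (-0.96, edgeR adjusted p = 0.0449), and its call in vivo was lost with DESeq2 and without shLuci library 1 or 2 or shRad21 library 1 or 3. The part of such cells in the values of the granule genes was not tested.

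Neighbors were 28 annotated genes within 50 kb of a granule gene with enough counts for a test in an experiment. In culture, 2 of 25 tested were lower, *Plppr3* and *Ccrl2*, a share near the 8.06% of all genes, and with the replicate number as a block *Tspoap1* (-0.41, edgeR adjusted p = 0.0391) was lower and *Ms4a6d* (1.21, edgeR adjusted p = 0.00499) and *Ms4a2* (2.15, edgeR adjusted p = 0.00199) were higher in addition. In vivo, 2 of 26 tested were lower, *Plppr3* and *Tspoap1*, against 5.32% of all genes, and 1, *S100a6*, was higher (0.56, edgeR adjusted p = 0.0172), which was lost without shLuci library 2 or shRad21 library 1 or 3 (adjusted p between 0.0641 and 0.0888). *Plppr3*, whose exons meet those of *Prtn3*, fell from a mean of 44.1 to 30.4 CPM in culture (-0.54, standard error 0.143, edgeR adjusted p = 0.0296) and from 434 to 279 CPM in vivo (-0.64, standard error 0.0881, edgeR adjusted p = 0.00168). Its call in culture was lost without shLuci library 1 or 3 or shRad21 library 2 or 3 (adjusted p between 0.0702 and 0.125). Among the other neighbors of *Prtn3* and *Elane*, *Med16* (0.22 in culture, -0.12 in vivo) and *R3hdm4* (0.01 and -0.02) gave no call. *Tspoap1*, 7653 bases from *Mpo*, had a log2 fold change of -0.78 in vivo (standard error 0.173, edgeR adjusted p = 0.0184), and its call was lost without shLuci library 1 (adjusted p = 0.0615) or shRad21 library 3 (0.0778). *Ccrl2*, 11719 bases from *Ltf*, had a log2 fold change of -0.50 in culture (standard error 0.125, edgeR adjusted p = 0.0226), and its call was lost without shLuci library 1 or 2 or shRad21 library 1 or 3 (adjusted p between 0.0616 and 0.0959).

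The genes most like the granule genes within groups were found from the deviations of each library from the mean of its group. Among 13290 genes with an average of at least 1 on the log2 CPM scale, *S100a9* was most like the mean of *Ltf*, *Ngp*, and *Camp*, with Pearson's r = 0.951 over 12 libraries. This value rests mostly on the in vivo libraries. *S100a9* had at most 0.263 CPM in culture, and *Ngp* and *Camp* had at most 2 counts per library there. *Mboat2* (0.925), *Pusl1* (0.913), *Tmem216* (0.910), and *Hsd17b10* (0.909) followed *S100a9*. The primary granule genes were most like *Swsap1* (0.945), *Pgm2* (0.943), *Gng2-ps1* (0.932), *Csnk1a1* (0.930), and *Parvg* (0.918), among which none is a granule gene. These correlations are descriptions over libraries that share lanes and kits, and the top values of so many genes are high by selection.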

How the data were processed

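RNA-seq of 12 libraries, 3 per group, was analysed from the raw count table. The authors removed ribosomal reads with SortMeRNA, trimmed with Prinseq, aligned to GRCm38 with TopHat2 2.0.11, counted reads per gene with HTSeq 0.6.1, and deposited the counts without normalization. The annotation release and the strand setting are not given in the sources used here. Of 46078 genes, 45229 were matched to GENCODE M21, which gave symbols, positions, and exonic lengths. Symbols were matched by Ensembl identifier.

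Within each experiment, counts were scaled by TMM and tested with edgeR 4.0.16 in R 4.3.3 (quasi-likelihood test, genes kept by filterByExpr with 10 counts per library and 15 in total, Benjamini-Hochberg adjustment over all genes kept, threshold 0.05). One model of all 12 libraries gave the comparison of control cells and the interaction. RPKM used this joint scaling. Count ratios carry exact 95% intervals, which like the limit of 3 counts cover counting error only. Tables were made with pandas 2.3.3, SciPy 1.17.1, and matplotlib 3.10.9, and the tests were tested on simulated data. Alternatives were DESeq2 1.42.0, other scalings and filters, the replicate number as a block, the 12-library model, and leaving out each library.

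In culture, same-numbered shLuci and shRad21 libraries deviated together from their group means (Pearson's r = 0.262, 0.216, and 0.251 across genes), so that the numbers pair the libraries, a pairing taken from the numbers in the labels. The main fits do not use this pairing, and libraries were left out only in fits without it. Named were the 10 members, genes of the lists, tested genes within 50 kb, and the 5 genes most like each granule class. The members and lists were chosen with earlier results of these data known.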

Additional observations from a re-analysis of the deposited data

Results flagged for a closer look

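The effect of the knockdown differed between culture and in vivo, by the interaction term of the edgeR model of all 12 libraries, for 12 of the genes described. Differences are given as the log2 fold change in culture minus that in vivo. Among granule genes this was *Prtn3* (-0.68, edgeR adjusted p = 0.0113), with each shRad21 library lower in both experiments. Among genes of later neutrophils these were *Lcn2* (-5.26, edgeR adjusted p = 0.00821), *Hp* (-2.83, edgeR adjusted p = 0.0117), *Cybb* (-3.43, edgeR adjusted p = 0.00500), *Padi4* (-0.73, edgeR adjusted p = 0.00224), and *Anxa1* (0.73, edgeR adjusted p = 0.00864). *Lcn2*, *Hp*, and *Cybb* had at most 13 counts in a shRad21 library in culture. Among regulators these were *Cebpb* (-1.63, edgeR adjusted p = 0.00446), *Cebpd* (-1.18, edgeR adjusted p = 0.0410), *Csf3r* (-0.93, edgeR adjusted p = 0.00110), and *Gfi1* (1.96, edgeR adjusted p = 4.78e-05), of which *Gfi1* was higher in each shRad21 library in culture and lower in each in vivo. The monocyte marker *Ms4a6c* (1.48, edgeR adjusted p = 0.0176) and *Ccrl2*, a neighbor of *Ltf* (-0.72, edgeR adjusted p = 0.0494), complete the list. The call was lost in 11 of 18 alternatives for *Cebpd* (adjusted p up to 0.118), all of them fits without 1 library, and in 12 of 18 for *Ccrl2* (adjusted p up to 0.130). It was also lost for *Ms4a6c* without shRad21 library 3 of either experiment and for *Hp* without shRad21 library 3 in culture (adjusted p = 0.0533). The kit, the gate, and the setting differed together between the experiments and cannot be told apart.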

How the results depend on the processing

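Over the 10 granule genes and 13 alternatives within each experiment or 18 across both, 512 of 560 alternative values kept direction and side of the threshold, 15 lost and 15 gained a call, and 18 changed sign, none of them called. For the called genes of the lists and neighbors, 700 of 774 were kept, 74 lost the call, and 0 changed sign. In culture, 3 granule genes were called, and 1 to 3 when a library was left out, while over all genes 2213 were called, 1352 to 2817 when a library was left out. In vivo, 2 granule genes were called, 4 with DESeq2, 6 without a filter, 4 with at least 10 counts in every library, 1 with the 12-library model, and 1 to 4 when a library was left out. Over all genes in vivo 1749 were called, 2829 without a filter, and 951 to 1562 when a library was left out. In the comparison of control cells, 10 granule genes were called and 6 with at least 10 counts in every library, a filter that removed the other 4. For the interaction, 1 granule gene was called and 2 without a filter (*Mpo* in addition), and over all genes 796, with DESeq2 1256, without a filter 1409, and 492 to 845 when a library was left out. The cause of these shifts was not tested.

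With the replicate number as a block, the calls of granule genes in culture were kept and the culture total was 3186. In vivo, where same-numbered libraries did not deviate together (r = 0.0240, 0.0350, and 0.0694), the block gave 4 called granule genes, adding *Ctsg* (-0.78, edgeR adjusted p = 0.0430) and *Ms4a3* (-0.53, edgeR adjusted p = 0.0485), and 1678 genes in all. Not every in vivo library correlated best with its own number.

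Signs changed when a library was left out for *Ltf* (-0.51 to 0.36), *Ms4a3* (-0.54 to 0.031), and *Lyz2* (-0.060 to 0.22) in culture and for *S100a8* in vivo (-0.57 to 0.091). For the interaction they changed for *Elane* (-0.75 to 0.36), *Ctsg* (-0.67 to 0.035), *Ltf* (-0.13 to 1.05), *Ngp* (-2.10 to 0.51), *Camp* (-0.18 to 3.50), and *Lyz2* (-0.16 to 0.12, and 0.0069 with the replicate block). The log2 ratio of primary to secondary genes from the mean of log2 CPM became 3.45 (shLuci) and 2.60 (shRad21) in culture and 3.01 in vivo (shLuci), and 3.14 in shLuci cells in vivo per kilobase of exons. Low counts limited the tests of *Ngp* and *Camp* in culture, where 3 counts were worth 0.101 to 0.197 CPM.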

Other observations

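Granule genes of other lineages were described by 2 lists. Of 8 mast cell and basophil granule genes, 1 of 6 tested was higher in shRad21 cells in culture, the carboxypeptidase gene *Cpa3* (log2 fold change 2.03). In the paired fit of the culture libraries, 3 were higher (*Cpa3*, *Tpsb2*, and *Ms4a2*) and 1 was lower, the granzyme gene *Gzmb*. In vivo, 4 of 8 tested were higher, *Cpa3* (1.09), the tryptase gene *Tpsb2* (3.69), the chymase gene *Cma1* (2.51), and *Gzmb* (1.64), and *Mcpt8* was lower with DESeq2. *Tpsb2* and *Cma1*, with at most 5 and 23 counts in a shLuci library in vivo, passed the filter on low counts through the shRad21 libraries, so that a rise was a condition for their being tested. At least 1 of the calls of *Cma1* and *Gzmb* in vivo was lost whichever library was left out, and both were lost without shLuci library 3, without shRad21 library 3, and in the 12-library model, which left 2 genes, *Cpa3* and *Tpsb2*. Of 7 eosinophil granule genes, none had enough counts in culture, and in vivo 1 of 2 tested was lower, *Prg2* (-1.20), which encodes the major basic protein. The call of *Prg2* was lost without shLuci library 1 or 2 or shRad21 library 2 or 3. Calls rest on an edgeR adjusted p under 0.05, and the shares over all genes tested are given in the paragraph that follows.

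Over all genes tested, 6.18% were higher and 8.06% were lower in culture, and 5.65% and 5.32% in vivo. Among markers of other cell types, 3 of 4 megakaryocyte markers tested were higher and 1 was lower in culture, and 4 of 5 were higher in vivo. Without shLuci library 2, 1 megakaryocyte marker was higher and 0 were lower in culture, and 2 were higher without shRad21 library 2 or 3. Of the stem and multipotent progenitor markers, 5 of 10 were higher and 2 were lower in culture, and 5 were higher and 3 were lower in vivo. In culture these counts became 6 and 3 in the paired fit, where *Procr* was higher and *Ly6a* lower in addition, and 3 were higher without shLuci library 2. Of the erythroid markers, 1 of 3 tested was lower in culture and 2 of 7 in vivo (4 without shLuci library 1), and of the B cell markers 1 of 2 and 4 of 6. Of the T and NK cell markers, 1 of 2 tested was lower in culture, and in vivo 1 of 3 was higher and 1 was lower. In culture the B cell marker call (*Cd79b*) and the T and NK cell marker call (*Nkg7*) were lost without shLuci library 2 or shRad21 library 1 or 2. Among the antigens of the sorting gates, 1 of 4 tested was lower in each experiment, *Itgam*, with the losses in vivo given above. The part of such cells in the granule gene values was not tested.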
